A study of Homo sapiens with 6 samples.

Results

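The genes described here are 10 immediate early and stress response genes: FOS, FOSB, FOSL1, FOSL2, JUN, JUNB, JUND, EGR1, IER3 and GADD45B. They were chosen by name, with earlier results of these data known. Each was found once by its Ensembl identifier among the 60483 genes listed in the count table. All 10 passed the filter on low counts and are among the 16198 genes tested. RNA was sequenced from A2780 cells, a human ovarian carcinoma line, and from A2780 CDK12 KO cells, with 3 libraries in each group and no treatment given in the labels. The KO cells are a single clone that went through 2 rounds of transfection with a CRISPR/Cas9 plasmid against exon 1 of CDK12, an RNA polymerase II kinase, and of selection. Its karyotype also differs from that of the WT cells. Clonal origin, karyotype and loss of CDK12 therefore cannot be told apart in the comparison. WT denotes the A2780 cells with the genotype WT, and both groups were grown in RPMI medium with serum. Nothing in the labels says whether the libraries of a group came from separate cultures, so the p-values measure the spread between these libraries.

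FOS and JUN proteins carry a basic region and a leucine zipper, and they pair through the zipper into the transcription factor AP-1. JUN proteins can pair with each other, whereas FOS proteins need a JUN partner. FOS, FOSB, JUN, JUNB and EGR1 are classic immediate early genes: growth factors, serum or stress switch them on through factors already present in the cell, and their mRNAs are short-lived. IER3 and GADD45B are also induced within a short time by stress and cytokines. IER3 protein takes part in survival signalling, and GADD45B binds kinases of the p38 and JNK pathways.

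Depth was sufficient for every gene of the set. Total counts ran from 11098400 to 30899045 per library, and 3 counts in the shallowest library correspond to 0.270 CPM (counts scaled by the library's adjusted total), a floor that covers counting error only. The genes had between 76 and 8195 counts in a library. CDK12 itself was counted in every KO library, at 98.0 ± 4.64 CPM against 115 ± 11.1 CPM in WT (SD, n = 3 each; log2 fold change -0.23, SE 0.0582, adjusted p = 8.20e-04, edgeR). Its RNA level does not separate edited from unedited transcripts. Of 12 epithelial and ovarian carcinoma markers, 4 passed the filter, EPCAM, KRT8, KRT18 and MSLN, while PAX8, WT1 and MUC16 stayed below it. On the adjusted p 3 of the 4 were higher and EPCAM lower (median log2 fold change 0.67), beside 31.9% and 32.0% of all tested genes. The 12 markers summed to 69.7 to 75.5 CPM in WT and 117 to 121 CPM in KO. Of 13 markers of other cell types, 6 were tested, with 2 called up (VWF and CD14, both under 1 CPM) and 3 called down (COL1A1, DCN and LUM). Of all tested genes 8.30% were called up and 7.73% down. The leukocyte markers PTPRC and CD3E and the endothelial marker PECAM1 stayed below the filter. The summed level of these 13 markers, almost all from the collagen genes COL1A1 and COL1A2, was 5140 to 5272 CPM in WT and 2679 to 2813 CPM in KO. The part of cell mixture in the results below was not tested, and in bulk RNA fewer expressing cells and less RNA per cell cannot be told apart.

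To show the regulatory sequence in front of the genes that moved most, the RefSeq promoter windows (build GRCh38.p14, 250 bases before to 50 bases after the annotated start, 5′ to 3′ on the gene's strand) are printed for JUN, EGR1 and GADD45B. Windows were at hand for 8 of the 10 genes, all but FOSL1 and IER3. JUN lies at chr1:58783998-58784297 on the minus strand, EGR1 at chr5:138465229-138465528 on the plus strand and GADD45B at chr19:2475877-2476176 on the plus strand. Capitals mark matches to a CRE (TGACGTCA), an AP-1 site (TGACTCA), a CArG box, an EGR site (GCGTGGGCG or GCGGGGGCG) or a TATA box (TATAAA), each searched on both strands.
JUN: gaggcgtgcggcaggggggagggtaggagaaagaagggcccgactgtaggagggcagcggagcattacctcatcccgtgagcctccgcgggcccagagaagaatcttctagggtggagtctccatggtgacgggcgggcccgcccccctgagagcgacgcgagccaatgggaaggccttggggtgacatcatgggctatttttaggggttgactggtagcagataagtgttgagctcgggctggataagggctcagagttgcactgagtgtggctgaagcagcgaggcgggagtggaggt
EGR1: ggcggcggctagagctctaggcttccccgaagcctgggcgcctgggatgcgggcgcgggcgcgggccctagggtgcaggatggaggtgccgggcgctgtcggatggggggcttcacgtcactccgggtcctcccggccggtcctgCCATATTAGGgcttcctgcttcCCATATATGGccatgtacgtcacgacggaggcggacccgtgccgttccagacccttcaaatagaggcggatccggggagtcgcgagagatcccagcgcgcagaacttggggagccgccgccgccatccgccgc
GADD45B: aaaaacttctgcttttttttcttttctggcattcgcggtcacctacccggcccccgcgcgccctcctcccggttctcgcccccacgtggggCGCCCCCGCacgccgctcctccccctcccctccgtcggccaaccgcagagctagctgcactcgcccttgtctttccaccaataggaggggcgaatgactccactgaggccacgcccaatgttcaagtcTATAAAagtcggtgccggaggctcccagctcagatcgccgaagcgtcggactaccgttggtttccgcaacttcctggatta

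The EGR1 window held 2 CArG boxes, the sites that serum response factor binds, from -105 to -96 and from -83 to -74 relative to the start. CArG boxes occurred in 1.29% of all 35116 windows, and in no other window of the set. Sequence more than 250 bases before the start was not searched. GADD45B had an EGR site on the minus strand from -159 to -151, a motif found in 5.77% of all windows. FOS, FOSB, JUNB and GADD45B each held a TATA box shortly before the start, at -31 to -26 in JUNB and GADD45B, and 11.5% of all windows held one. JUND held a CRE from -200 to -193 (1.85% of all windows) and FOSL2 an AP-1 site from 5 to 11 (4.95%). None of these motifs was found in the JUN window, which says only that these letters are not in it. A looser NF-kB motif was present in 39.2% of all windows and is not marked. Such matches are descriptions of the sequence and no evidence of binding in these cells.

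Read against WT, the set moved in both directions in KO cells. JUN, JUND, EGR1, FOS and JUNB rose, whereas IER3, GADD45B, FOSL2 and FOSB fell, and FOSL1 did not pass the test. A gene was called when its adjusted p was under 0.05 and its log2 level differed by more than 1. By this rule 2 genes were called up (JUN and EGR1), beside 8.30% of all tested genes. In the other direction 2 were called down (IER3 and GADD45B), beside 7.73% of all tested genes. On the adjusted p alone, 5 of the 10 were higher, beside 31.9% of all tested genes, and 4 were lower, beside 32.0%. The 3 KO values lay outside the range of the 3 WT values for 9 of the 10 genes, beside 66.4% of all tested genes. Because the genes were chosen with earlier results of these data known, these counts describe the set and test nothing about it. With the genes moving both ways, the median log2 fold change of the set was 0.20, against 0.00 for all tested genes, whose quartiles were -0.30 and 0.34.

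**Figure D1:**
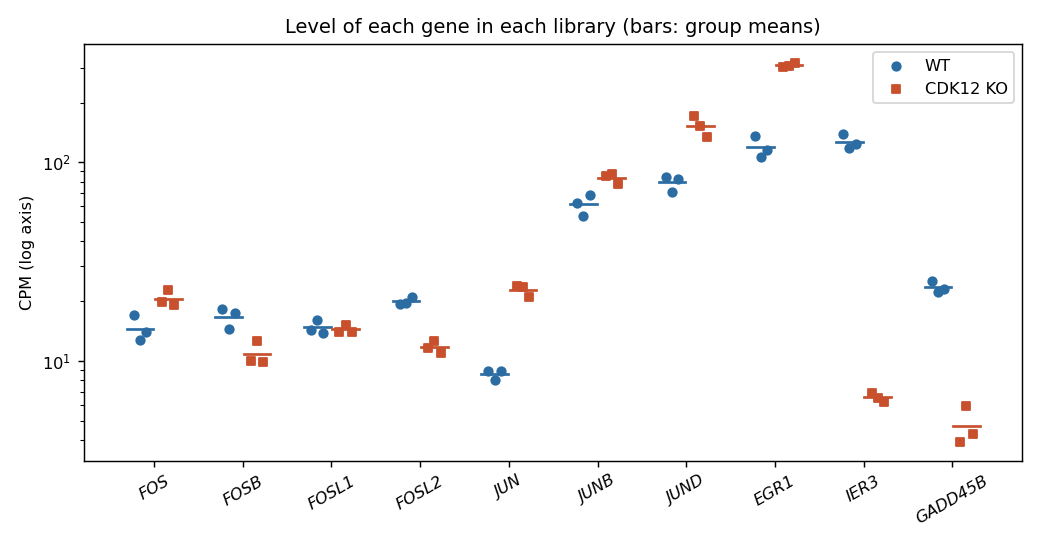
CPM of each gene on a log axis in the 3 WT libraries (blue circles) and the 3 CDK12 KO libraries (red squares), with group means as bars. IER3 drops from 127 to 6.55 CPM and EGR1 climbs from 119 to 308 CPM, while the FOSL1 points overlap.

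IER3 (ENSG00000137331, chromosome 6, 30743199 to 30744548, minus strand) showed the largest change of the set. Its level was 139, 119 and 124 CPM in the WT libraries and 6.88, 6.54 and 6.24 CPM in the KO libraries. No KO library came near the WT range, and the 3 KO values differed little from each other. The mean of 127 ± 10.5 CPM dropped to 6.55 ± 0.321 CPM (SD, n = 3 each), a 19.4-fold decrease. The log2 fold change was -4.27 (SE 0.0754, adjusted p = 1.29e-30, edgeR), and 311 of the 16198 tested genes had a value as low or lower. Raw counts behind it were 3805, 3553 and 1374 in WT and 169, 176 and 111 in KO.

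GADD45B (ENSG00000099860, chromosome 19, 2476122 to 2478259, plus strand) fell as well. It stood at 25.4, 22.4 and 23.1 CPM in WT and at 3.91, 5.91 and 4.27 CPM in KO. The lowest WT library was thus well above the highest KO library, KO replicate 2. Means were 23.6 ± 1.59 and 4.69 ± 1.07 CPM (SD, n = 3 each), a 5.03-fold decrease with a log2 fold change of -2.31 (SE 0.107, adjusted p = 7.458e-19, edgeR). Its paralogue GADD45A, a p53 target, moved the other way and by less than the fold threshold, from 31.7 ± 2.75 to 39.5 ± 2.27 CPM (log2 fold change 0.34, SE 0.0664, adjusted p = 4.641e-05, edgeR). GADD45G was near absent, with a mean of 0 CPM in WT and 0.0124 CPM in KO, and was not tested. Of the other genes of the GADD45 list, which holds the kinases and cell cycle proteins that GADD45 proteins bind, none passed both thresholds. In this list 9 of 10 genes were tested, GADD45A among them, and 8.30% of all tested genes were called up and 7.73% down. On the adjusted p alone 2 of the list were higher and 3 lower, beside 31.9% and 32.0% of all tested genes.

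EGR1 (ENSG00000120738, chromosome 5, 138465479 to 138469303, plus strand), a zinc finger transcription factor, rose. The WT libraries had 136, 106 and 115 CPM, and the KO libraries 303, 304 and 317 CPM. The KO values were close together and far above the highest WT value. This gave means of 119 ± 15.6 and 308 ± 7.50 CPM (SD, n = 3 each), a 2.59-fold increase and a log2 fold change of 1.37 (SE 0.0611, adjusted p = 2.525e-19, edgeR). Among its paralogues EGR3 was also called up, from 3.00 ± 0.753 to 6.78 ± 0.266 CPM (log2 fold change 1.16, adjusted p = 2.438e-08, edgeR). EGR4 was counted 3, 2 and 1 times in WT and 38, 28 and 19 times in KO, so its WT level was at the floor. EGR2 was low in both groups, at 0.778 ± 0.117 and 0.587 ± 0.0730 CPM, and did not pass the test (log2 fold change -0.41, SE 0.297, adjusted p = 0.229, edgeR).

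All 3 JUN family genes were higher in KO. JUN (ENSG00000177606, chromosome 1, 58776845 to 58784048, minus strand), which gives AP-1 its strongest activating subunit, had 8.87, 8.04 and 8.91 CPM in WT and 23.8, 23.5 and 21.1 CPM in KO. The groups were widely separate, and the mean went from 8.61 ± 0.490 to 22.8 ± 1.52 CPM (SD, n = 3 each), a 2.65-fold increase. Its log2 fold change was 1.42 (SE 0.0850, adjusted p = 6.77e-16, edgeR).

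JUND (ENSG00000130522, chromosome 19, 18279694 to 18281622, minus strand), the subunit that resting cells express steadily, had 84.6, 71.1 and 82.3 CPM in WT and 172, 152 and 134 CPM in KO. All KO values were higher, with the widest spread of the set in CPM, from 79.3 ± 7.23 to 153 ± 18.6 CPM (SD, n = 3 each). Its log2 fold change of 0.95 (SE 0.0670, adjusted p = 4.728e-14, edgeR) lay just under the fold threshold. Without WT replicate 1 it was 1.01 and without KO replicate 3 it was 1.03, so that 3 genes of the set were then called up. JUNB (ENSG00000171223, chromosome 19, 12791486 to 12793315, plus strand), a weaker activator that can oppose JUN, had 62.8, 53.5 and 68.4 CPM in WT and 85.1, 87.1 and 77.5 CPM in KO. The groups did not overlap, though the rise was smaller, from 61.6 ± 7.52 to 83.2 ± 5.05 CPM (SD, n = 3 each; log2 fold change 0.46, SE 0.0645, adjusted p = 2.631e-07, edgeR).

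The FOS family split. FOS (ENSG00000170345, chromosome 14, 75278826 to 75282230, plus strand) had 17.0, 12.7 and 14.0 CPM in WT and 19.9, 22.9 and 19.0 CPM in KO. Each KO library exceeded each WT library, but WT replicate 1 came close to the lowest KO value. The log2 fold change was 0.50 (SE 0.0921, adjusted p = 1.71e-05, edgeR), with means of 14.5 ± 2.22 and 20.6 ± 2.01 CPM (SD, n = 3 each).

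FOSB (ENSG00000125740, chromosome 19, 45467995 to 45475179, plus strand) fell from 18.2, 14.5 and 17.5 CPM in WT to 9.97, 12.6 and 9.89 CPM in KO. The highest KO library remained below the lowest WT library (log2 fold change -0.60, SE 0.0993, adjusted p = 3.704e-06, edgeR). FOSL2 (ENSG00000075426, chromosome 2, 28392448 to 28417317, plus strand), which encodes FRA2, fell from 19.3, 19.5 and 21.0 CPM to 11.7, 12.6 and 11.0 CPM, again without overlap (log2 fold change -0.75, SE 0.0809, adjusted p = 1.362e-09, edgeR).

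FOSL1 (ENSG00000175592, chromosome 11, 65892049 to 65900573, minus strand), which encodes FRA1, had 14.3, 16.2 and 13.8 CPM in WT and 14.0, 15.2 and 14.0 CPM in KO. The values of both groups were intermingled, and no difference was detected (log2 fold change -0.05, SE 0.0836, adjusted p = 0.640, edgeR). The exact permutation test of log2 CPM, two-sided, gave p = 0.7 for FOSL1 and p = 0.1 for each of the other 9 genes, the smallest p that 3 libraries against 3 allow.

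**Figure D2:**
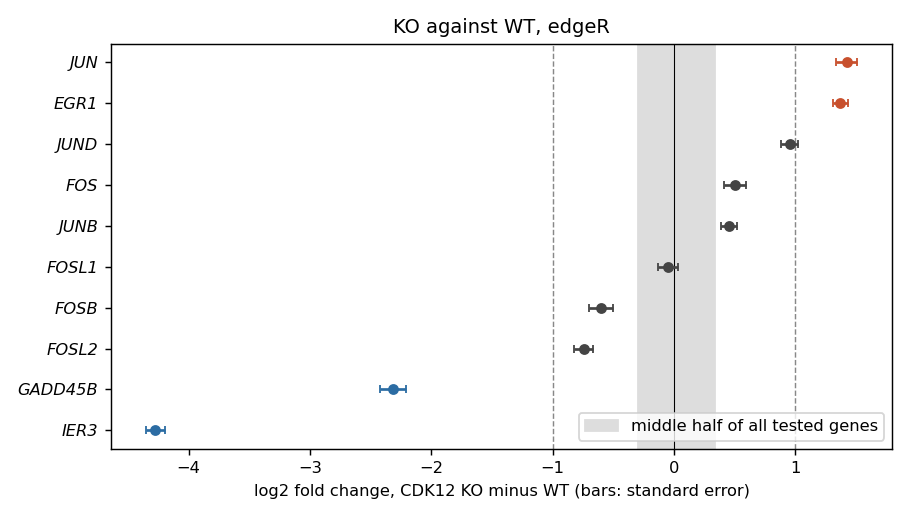
The log2 fold change of KO minus WT (x axis) with its standard error for each gene, in the order of the change; dashed lines mark the fold threshold and the grey band the range between the quartiles of all tested genes. JUN and EGR1 (red) lie past the threshold on the right, GADD45B and IER3 (blue) on the left, and FOSL1 is the single gene whose standard error bar reaches 0.

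Levels were then compared between genes, after division by the length of all annotated exons of each gene in kb. In WT cells IER3 was the most abundant transcript, at 94.1 ± 7.81 CPM per kb (SD, n = 3). JUND, EGR1 and JUNB followed with 41.1 ± 3.75, 37.9 ± 4.97 and 33.7 ± 4.11 CPM per kb, where JUND overlapped EGR1 and EGR1 overlapped JUNB in the range over the libraries. GADD45B at 11.0 ± 0.745, FOSL1 at 7.82 ± 0.658 and FOS at 4.57 ± 0.697 CPM per kb formed separate steps below. FOSB at 3.01 ± 0.355 and FOSL2 at 2.78 ± 0.127 overlapped, and JUN was lowest at 2.38 ± 0.135 CPM per kb.

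In KO cells the order changed. EGR1 came first with 98.2 ± 2.39 CPM per kb, ahead of JUND with 79.1 ± 9.64 and JUNB with 45.5 ± 2.76 (SD, n = 3 each). FOSL1 had 7.64 ± 0.370 CPM per kb. FOS at 6.47 ± 0.632 and JUN at 6.29 ± 0.418 overlapped. IER3, first in WT, was seventh at 4.85 ± 0.237 CPM per kb, followed by GADD45B at 2.20 ± 0.498 and FOSB at 1.95 ± 0.281, which overlapped, and by FOSL2 at 1.64 ± 0.112. The place of FOSL1 in KO depends on the length used: per kb of the longest transcript it had 8.48 CPM and FOS 9.80 CPM.

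The make-up of the AP-1 transcripts was then compared within both families, where a p of 0.1 is again the smallest possible. Summed per length, the 3 JUN genes had 77.2 ± 7.70 CPM per kb in WT and 131 ± 12.2 in KO, and the lowest KO value exceeded the highest WT value (p = 0.1, exact permutation test). The 4 FOS genes together had 18.2 ± 0.640 CPM per kb in WT and 17.7 ± 1.38 in KO, with overlapping libraries (exact permutation test, two-sided, p = 0.6). Within the FOS family, FOS took 28.2%, 22.3% and 24.7% of that sum in WT and 36.5%, 37.3% and 35.7% in KO. In exchange the share of FOSB went from 16.5% ± 1.70 to 11.0% ± 0.709 and that of FOSL2 from 15.3% ± 1.11 to 9.26% ± 0.246 (SD, n = 3 each). FOSL1 kept a similar mean share, 43.1% ± 4.22 in WT and 43.3% ± 1.32 in KO. Within the JUN family JUND took 53.3% ± 1.45 in WT and 60.3% ± 1.99 in KO, JUNB 43.6% ± 1.52 and 34.8% ± 1.83, and JUN 3.09% ± 0.141 and 4.82% ± 0.160. Apart from FOSL1 (p = 1), the libraries of the groups were separate for each of these shares, with p = 0.1 in the exact permutation test.

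**Figure D3:**
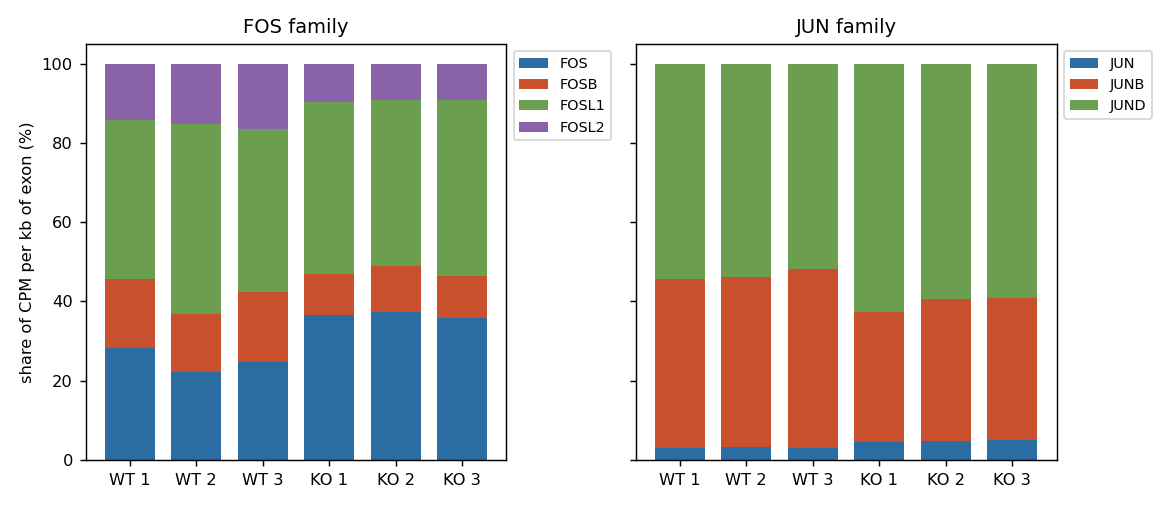
Share of each gene (y axis, percent of the family's summed CPM per kb of exon) in every library, with the FOS family on the left and the JUN family on the right. FOS widens in the KO libraries while FOSB and FOSL2 narrow, and the share of JUND is larger and that of JUNB smaller in KO.

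Libraries of one group also differed in a shared way. WT replicate 2 had the lowest CPM of the WT libraries for 8 of the 10 genes, all but FOSL1 and FOSL2, whereas it was lowest for 31.6% of all tested genes. Of the 42 other immediate early genes described below, 18 were lowest in WT replicate 2. Among the KO libraries, replicate 3 was lowest for 7 of the 10, against 33.7% of all tested genes. Without WT replicate 2 the log2 fold change was 1.28 for EGR1 and 0.87 for JUND, and that of FOSL1 became 0.03. Heat shock genes, which respond to stress during handling, summed to 5352, 5924 and 5727 CPM in the WT libraries and 5727, 5749 and 5469 CPM in the KO libraries. None of the 11 passed both thresholds, beside 8.30% of all tested genes called up and 7.73% called down.

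A wider list of 42 other immediate early genes, all of them tested, also held changes in both directions. Of them, 6 were called up and 8 down, beside 8.30% and 7.73% of all tested genes. On the adjusted p alone 18 were higher and 14 lower, beside 31.9% and 32.0%, and the median log2 fold change was 0.02. Those called up included KLF4, a zinc finger factor, from 1.03 ± 0.137 to 5.02 ± 0.279 CPM (log2 fold change 2.28), and the antiproliferative gene BTG1, from 5.81 ± 0.851 to 14.3 ± 1.20 CPM (1.31). ARC was counted 2, 5 and 3 times in WT and 86, 88 and 63 times in KO. ATF3, a stress-induced partner of JUN, went from 5.17 ± 1.71 to 12.3 ± 1.76 CPM (log2 fold change 1.15, adjusted p = 6.871e-09, edgeR).

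The genes called down included CCN1 and CCN2, secreted matricellular proteins. CCN1 fell from 36.7 ± 2.22 to 0.572 ± 0.158 CPM (log2 fold change -5.95), and CCN2 from 19.3 ± 1.65 to 0.353 ± 0.0650 CPM (-5.72). The orphan nuclear receptor NR4A1 fell from 34.5 ± 2.50 to 8.55 ± 0.705 CPM (log2 fold change -2.01, adjusted p = 1.21e-20, edgeR). Its relative NR4A3 was counted 66, 57 and 22 times in WT and 0, 0 and 1 times in KO. PHLDA1, a gene induced by growth factors, fell from 16.3 ± 1.59 to 1.15 ± 0.147 CPM (-3.84). IER5 was higher without reaching the fold threshold (log2 fold change 0.77, adjusted p = 2.393e-13, edgeR), while IER2 showed no detectable difference (109 ± 11.1 and 106 ± 6.08 CPM, adjusted p = 0.678, edgeR).

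Partners of FOS and JUN were called in both directions, ATF3 among them. Of 23 AP-1 partners and other bZIP factors, 20 were tested, with 4 called up and 3 called down, beside 8.30% and 7.73% of all tested genes. On the adjusted p alone 8 were higher and 8 lower, beside 31.9% and 32.0% of all tested genes, and the median log2 fold change was -0.04. CREM, a factor that binds cAMP response elements, rose from 9.54 ± 1.09 to 55.5 ± 1.67 CPM (log2 fold change 2.52, adjusted p = 2.771e-24, edgeR), and CREB5 from 0.965 ± 0.262 to 21.0 ± 3.14 CPM (4.34). BACH2 was counted 1, 0 and 0 times in WT and 22, 17 and 23 times in KO. JDP2, a repressor that pairs with JUN, fell from 17.3 ± 0.472 to 7.99 ± 0.397 CPM (-1.13), NFE2 from 5.57 ± 0.719 to 0.217 ± 0.0118 CPM (-4.69) and NFE2L3 from 30.4 ± 1.89 to 11.7 ± 0.806 CPM (-1.37).

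Upstream of the set, differences were mostly below the fold threshold. Of 35 kinases and factors that act on FOS, JUN and EGR1, among them SRF, the ELK factors and the ERK, JNK and p38 kinases, MAPK10 alone was called, and it was low, at 0.210 ± 0.0495 CPM in WT and 1.33 ± 0.161 CPM in KO (log2 fold change 2.56, adjusted p = 5.502e-08, edgeR). That is 1 called up and 0 down, beside 8.30% and 7.73% of all tested genes; on the adjusted p alone 12 were higher and 11 lower, beside 31.9% and 32.0%, and the list's median was -0.08. SRF, the factor that binds CArG boxes, fell from 54.2 ± 2.26 to 29.6 ± 1.90 CPM (log2 fold change -0.87, adjusted p = 4.912e-14, edgeR). Its cofactors differed in direction, with ELK4 at 0.84, ELK1 at 0.46 and ELK3 at -0.66 on the log2 scale. The JNK kinase genes other than MAPK10 differed in direction too, with MAPK8 at 0.60 and MAPK9 at -0.20. None of 8 genes for the turnover of JUN and FOS proteins (median -0.00) and none of 19 genes for the decay of AU-rich mRNAs (median -0.06) passed both thresholds. On the adjusted p alone, 0 and 7 were higher, beside 31.9% of all tested genes, and 3 and 7 lower, beside 32.0%.

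Genes that AP-1 is known to activate or that are linked to it were looked at next. Of 25 AP-1 target genes 16 were tested, with 3 called up and 6 down, beside 8.30% and 7.73% of all tested genes. On the adjusted p alone 5 were higher and 8 lower, beside 31.9% and 32.0% of all tested genes, and the median log2 fold change was -0.32. The collagenase gene MMP1 fell from 725 ± 9.55 to 4.82 ± 0.238 CPM (log2 fold change -7.22, adjusted p = 1.196e-37, edgeR). MMP10 fell from 226 ± 8.56 to 0.879 ± 0.0856 CPM and MMP3 from 109 ± 3.35 to 0.492 ± 0.0119 CPM. The positions of these MMP genes were not examined, and whether they changed independently of one another was not tested. TIMP1, which inhibits these proteases, rose from 319 ± 10.7 to 1209 ± 39.5 CPM (log2 fold change 1.92, adjusted p = 5.16e-26, edgeR). The integrin gene ITGA2 rose from 0.267 ± 0.159 to 4.36 ± 0.958 CPM. Its WT mean was under 0.270 CPM, the level of 3 counts in the shallowest library. CCL2 was counted 1, 0 and 0 times in WT and 18, 21 and 9 times in KO.

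IER3 and GADD45B are targets of NF-kB, and GADD45B also of TGF-beta signalling. Of 20 NF-kB pathway and target genes, 12 were tested, and TNFAIP2 was called down, from 1.12 ± 0.127 to 0.300 ± 0.139 CPM. Thus 1 was called down and none up, beside 7.73% and 8.30% of all tested genes. On the adjusted p alone 8 of the 12 were lower and 1 higher, beside 32.0% and 31.9% of all tested genes. The list's median log2 fold change was -0.25. Of 17 TGF-beta pathway and target genes, all tested, 3 were called down and none up, beside the same 7.73% and 8.30%. On the adjusted p alone 4 were higher and 8 lower, beside 31.9% and 32.0% of all tested genes (median of the list -0.11). Among the genes called down were CCN2, given above, and the ligand gene TGFB2, which was counted 539, 597 and 233 times in WT and 0, 1 and 1 times in KO. The lists share genes, and each counts in every list that holds it.

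**Figure D4:**
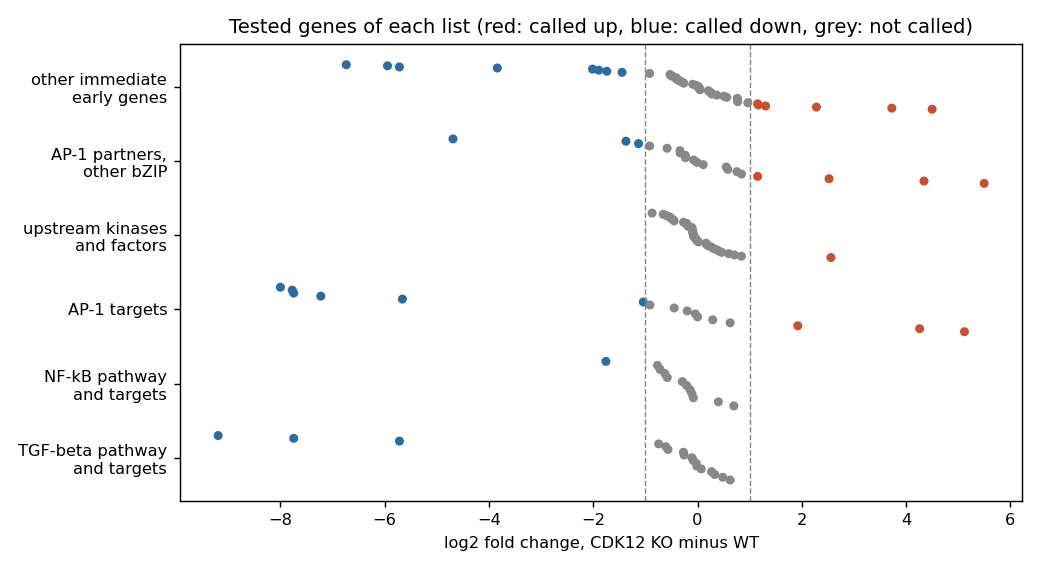
Each point is a tested gene of a list, at its fitted log2 fold change of KO minus WT (x axis; dashed lines at the fold threshold); points are spread vertically within a list by rank. Called genes lie on both sides for the immediate early, bZIP and AP-1 target lists. Of the 12 NF-kB genes 1 was called down, of the 17 TGF-beta genes 3 were, and none of either list was called up. Of all tested genes 7.73% were called down and 8.30% up. Genes at the floor in a group have a fitted value that is no measured fold.

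All of the genes but FOSL2 are compact. The 10 genes span 1350 to 24870 bases, FOSL2 being the longest, and 9 of them span at most 10 kb. The median was 25809 bases for the 15989 tested genes matched to the annotation, of which 4650 span at most 10 kb. JUN, JUNB and JUND have a single exon. Among the 4650 tested genes of at most 10 kb, 9.78% were called up and 6.52% down (median log2 fold change 0.05), and among 1823 genes with 1 exon, 10.9% and 4.88% (median 0.08).

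Genes beside the called members are given for comparison. EGR1 lies on chromosome 5, where the median log2 fold change of 743 tested genes was 0.27, and its 5 nearest tested genes on each side ranged from -0.08 to 0.99 (median 0.29) with none called. The nearest, REEP2 and ETF1, had 0.37 and 0.16. The 10 neighbours of IER3 ranged from -1.20 to 1.22 (median -0.31). One of them was called down, FLOT1, which encodes a membrane raft protein, from 125 to 54.3 CPM, and one called up, the low-count gene PSORS1C1. The tested genes nearest to IER3 on each side were IER3-AS1, with 0.85, and the receptor kinase gene DDR1, with -0.62. Around GADD45B the range was -1.15 to 0.09 (median -0.22), with DIRAS1 called down; next to it LMNB2 had -0.71 and GNG7 -0.79. Chromosome 19, which carries GADD45B, FOSB, JUNB and JUND, had a median of -0.07 over 1098 tested genes. JUN had neighbours between -0.80 and 7.09 (median 0.04), the highest being NFIA, a transcription factor gene that went from 0.381 to 50.5 CPM. These neighbours are not all close: JUN lies at 58776845 to 58784048 and NFIA at 60865259 to 61462788. The 10 genes spread from 55066359 to 62451804. The genes nearest to JUN, MYSM1 and FGGY, had -0.11 and 0.27. Near FOS on chromosome 14, JDP2 was the called neighbour.

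**Figure D5:**
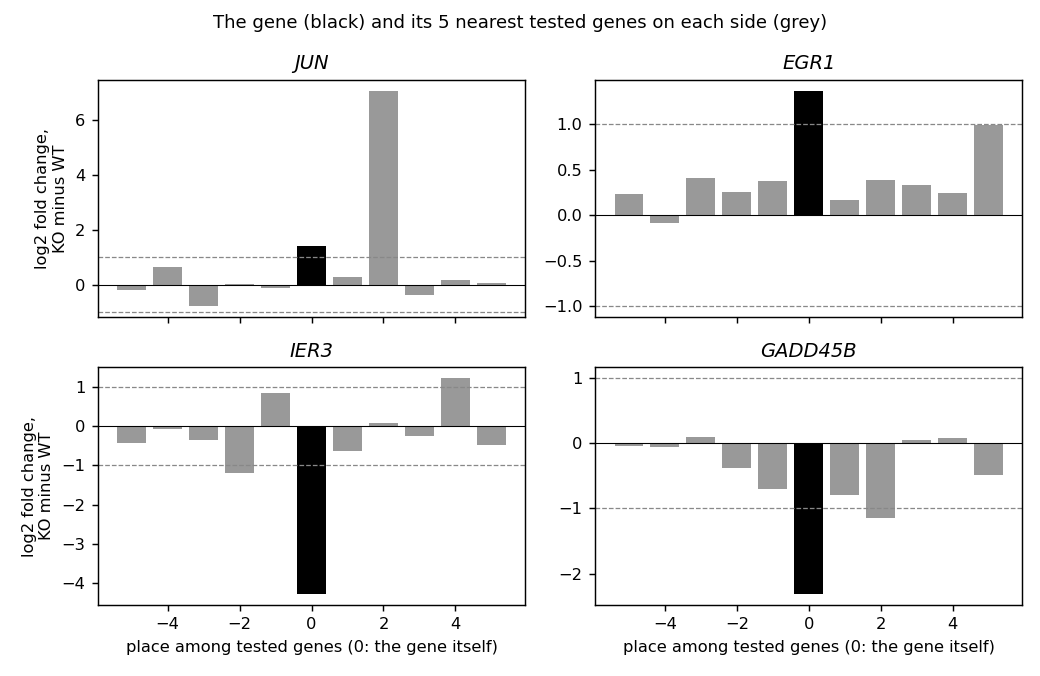
The log2 fold change of KO minus WT for each called gene (black) and its 5 nearest tested genes on either side by position (grey), with the fold threshold dashed; the 4 panels have different y scales. EGR1, IER3 and GADD45B exceed all their neighbours in size, whereas NFIA at 7.09 exceeds JUN. Places on the x axis are ranks and not distances.

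Some of the genes overlap others in the annotation, all but one on the opposite strand. The library kit keeps strand information, but whether the counting used it is not given in the sources used here. ERCC1 overlaps FOSB and had a log2 fold change of 0.19, and HOOK2 overlaps JUNB with 0.05, with 790 to 2290 and 422 to 1238 counts per library. IER3-AS1 and HCG20 overlap IER3 and had at most 27 counts in a library. IER3-AS1 was higher in KO (log2 fold change 0.85, adjusted p = 0.0113, edgeR), whereas HCG20 was not tested. FOSL2-AS1 was not counted in any library. On the strand of FOSL2 itself lies ENSG00000270640, counted once in WT replicate 1 and in no other library.

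Over the 6 libraries, the tested genes whose log2 CPM profile was closest to that of IER3, centred on the WT mean, were LINC02167, ANXA2 and CACNA2D1-AS1 (root mean square differences of 0.0841, 0.0884 and 0.107). LINC02167 had no count in any KO library, so that its KO profile, and with it the first place, is set by the prior count added before taking logs. Its likeness to IER3 is therefore not a measured one. ANXA2, the gene of the membrane protein annexin A2, went from 134 to 6.52 CPM, and CACNA2D1-AS1 from 66.3 to 3.38 CPM. Closest to JUN were GDF7 (0.0321), CFAP70 (0.0756) and JMJD1C-AS1 (0.0766). With 2 groups of 3 libraries this likeness reflects mostly a similar difference between the groups.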

How the data were processed

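RNA-seq libraries from A2780 WT and A2780 CDK12 KO cells (n = 3 each) were grouped by the genotype in the labels. The authors deposited raw counts per gene: after FastQC, stranded single-ended reads were aligned with STAR to GRCh38 and counted with HTSeq-Count; versions, annotation release and counting options are not given in the sources used here. The table's identifiers were matched, without version, to the annotation of GENCODE 44 (93.1% of 60483 genes found). The members and gene lists were chosen with earlier results of these data known.

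The comparison of KO minus WT used edgeR 4.0.16 (R 4.3.3): filterByExpr (minimum count 10, minimum total 15), TMM scaling, the quasi-likelihood test, two-sided, and Benjamini-Hochberg adjustment over the 16198 genes kept. CPM uses the TMM-scaled totals. Standard errors (SE) are those implied by the test. Genes were called at an adjusted p below 0.05 with an absolute log2 fold change over 1, the cutoffs of the study's methods, which name voom/limma. That tool (limma 3.58.1), DESeq2 1.42.0, other scalings, filters and call rules, thinning and leaving out each library were alternatives. Named genes are the 10 members, CDK12, paralogues and like-named relatives (EGR2 to EGR4, IER2, IER5, GADD45A, GADD45G, ATF3, NR4A1), overlapping genes, the tested genes next to called members, the 3 genes of closest profile for IER3 and JUN, and the called genes of each list, at most 4 in each direction. NFIA, DIRAS1, PSORS1C1, SRF, ELK1, ELK3, ELK4, MAPK8, MAPK9 and the markers of other cell types were singled out after their values were seen. Motifs were searched in RefSeq promoter windows. SOD2 was not matched to a listed gene. One list gene that the rule names is not reported here. The scripts were tested on simulated data. Python 3.11.15 with scipy 1.17.1 made the permutation tests, and matplotlib 3.10.9 the plots.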

Additional observations from a re-analysis of the deposited data

How the results depend on the processing

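No paired analysis was possible because the labels pair no WT library with a KO library. Under voom/limma, DESeq2, 2 other scalings, 2 other filters, thinning to the smallest total and the omission of each library, the 9 genes past the adjusted p kept their direction and passed it again, and FOSL1 did not pass it. The log2 fold change lay between -4.40 and -4.20 for IER3, -2.54 and -2.18 for GADD45B, 1.28 and 1.48 for EGR1, and 1.36 and 1.47 for JUN. That of FOSL1 lay between -0.0904 and 0.0289 and turned to 0.0289 without WT replicate 2, with an adjusted p of 0.805; over the alternatives its adjusted p ran from 0.417 to 0.914. The number of members called up lay between 2 and 3 with a library left out, and that called down was 2 in each such fit. On the adjusted p alone 5 members were called up and 4 down, by construction. Over all genes, the adjusted p alone called 5165 up and 5188 down, against 1345 and 1252 with the fold threshold. With at least 10 counts in every library, which tests fewer genes, 568 were called up and 684 down, and a test against the fold threshold itself called 756 up and 931 down, so that more genes were then down than up. Shares by counts without length changed the make-up of the FOS family: FOSL1 then took 22.4% in WT and 25.1% in KO. Depth limits the low genes, since a level under 0.270 CPM is 3 counts or fewer in the shallowest library.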
